A study of Mus musculus with 6 samples.

Results

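The Kruppel-like factors are DNA-binding transcription factors that carry a run of zinc fingers at their C-terminal end. The members described here are Klf2, Klf3, Klf4, Klf6, Klf7, Klf9, Klf10, Klf11, Klf13 and Klf15, the 10 rows with these symbols among the 16229 genes listed for mouse heart. They were chosen by symbol out of the 16 Klf genes listed, with their measured differences between treated and untreated hearts already known and by no fixed threshold, so these differences are given as a description and nothing rests on a test of them. The 6 libraries were made from poly-A RNA of hearts from male wild-type C57BL/6 mice aged 8 to 10 weeks, with 2 libraries from mice given rivaroxaban at 3 mg/kg for 7 days (replicates 14 and 15), 2 from mice given dabigatran at 10 mg/kg for 7 days (replicates 10 and 12) and 2 from untreated mice (replicates 8 and 9). Rivaroxaban blocks coagulation factor Xa and dabigatran blocks thrombin, factor IIa. The series is about reperfusion injury of the heart and its protocols describe the tissue as infarcted heart with its surroundings, for every group. Surgery in the untreated mice is not stated, and neither is whether 2 libraries of a group are 2 animals, so the errors below cover the spread between these libraries, which may be technical.

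Kruppel-like factors bind GC-rich and CACCC-type promoter elements and either activate or repress, depending on the partners their N-terminal part recruits. Klf2 and Klf4 are best known from endothelium, where blood flow turns them on through the kinase ERK5 and MEF2 factors and where they keep vessels in an anti-thrombotic, anti-inflammatory state. Klf15 is known in heart muscle for its control of fuel use and growth. Klf9 and Klf15 are targets of the glucocorticoid receptor, and Klf10 and Klf11 were first described as early targets of TGF-beta.

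The promoters of the 4 members whose mRNA rose with at least 1 of the drugs are shown, so that these sequences can be compared. Each line gives the 250 bases before the RefSeq transcription start, 5′ to 3′ on the strand of the gene, from RefSeq on GRCm38.p6. Capitals mark CACCC boxes (CACCC), GC boxes (GGGCGG), short cAMP response elements (TGACG) and MEF2 sites on either strand, and neighbouring boxes can overlap. The windows are chr8:72318812-72319061 on the plus strand for Klf2, chr4:55532476-55532725 on the minus strand for Klf4, chr13:5861239-5861488 on the plus strand for Klf6 and chr19:23140976-23141225 on the plus strand for Klf9.
Klf2: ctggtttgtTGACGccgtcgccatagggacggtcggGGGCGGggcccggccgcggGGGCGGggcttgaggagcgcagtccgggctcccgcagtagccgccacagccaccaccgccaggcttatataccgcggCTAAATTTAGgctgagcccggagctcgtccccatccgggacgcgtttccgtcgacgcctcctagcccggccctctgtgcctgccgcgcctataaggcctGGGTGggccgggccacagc
Klf4: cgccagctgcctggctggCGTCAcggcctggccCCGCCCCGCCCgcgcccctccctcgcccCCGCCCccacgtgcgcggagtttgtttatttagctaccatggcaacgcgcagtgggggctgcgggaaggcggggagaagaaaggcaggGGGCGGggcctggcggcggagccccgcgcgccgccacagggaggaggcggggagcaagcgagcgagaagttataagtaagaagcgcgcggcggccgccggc
Klf6: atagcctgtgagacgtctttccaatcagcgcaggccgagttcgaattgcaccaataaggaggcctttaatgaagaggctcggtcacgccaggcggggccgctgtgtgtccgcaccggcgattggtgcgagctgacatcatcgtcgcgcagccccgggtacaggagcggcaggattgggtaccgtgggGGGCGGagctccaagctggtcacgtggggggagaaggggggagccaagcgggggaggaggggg
Klf9: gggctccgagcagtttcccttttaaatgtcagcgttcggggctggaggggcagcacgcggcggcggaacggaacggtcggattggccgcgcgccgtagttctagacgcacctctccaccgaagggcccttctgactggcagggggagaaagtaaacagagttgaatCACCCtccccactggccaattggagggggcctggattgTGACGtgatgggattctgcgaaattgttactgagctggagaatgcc

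The Klf2 window held a MEF2 match, CTAAATTTAG, 118 to 109 bases before the start, and no other of the 9 members with a RefSeq window had one. A MEF2 match was present in 2.92% of all 32817 promoter windows of this length. GC boxes were present in 8 of the 9 windows, against 32.7% of all windows, CACCC boxes in 6 of 9, against 52.0%, and short cAMP response elements in 5 of 9, against 17.7%. None of the capitalized elements was present in every window shown. Klf9 lacked the GC box, Klf6 the short cAMP response element, and Klf4 and Klf6 the CACCC box. The windows shown were GC-rich, with 71.2% G or C for Klf2, 74.0% for Klf4, 64.8% for Klf6 and 59.6% for Klf9, where the median of all windows was 52.4%. Neither the short glucocorticoid element TGTTCT (16.1% of all windows) nor the serum response element (1.47%) was found in any of the 9 windows, nor were the full palindromic glucocorticoid element (0.387%), the full cAMP response element (TGACGTCA, 1.55%) or TATAAA (12.4%). CCAAT was present in 5 of 9, against 33.8%, and the AP-1 site TGANTCA in 1, that of Klf9, against 6.75%. These matches describe letters in the windows and say nothing of binding in these hearts.

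Levels are in log2 CPM, read counts scaled to library size on a log2 scale. Library totals over the table's genes ran from 27176892 to 43798222 reads, and a member had between 232 reads (Klf3) and 6372 reads (Klf2) in a library. Differences are those of log2 CPM with their 95% interval from a limma fit to all libraries. The fit pools the spread of a gene over all groups and draws it toward that of genes of like level. An interval is therefore not the spread of that gene alone. A gene is said to have passed, risen or fallen where its limma p adjusted over all 12981 tested genes was at most 0.05. The tissue carried its defining heart muscle genes, with the 6 of 8 cardiomyocyte markers in the table summing to between 80268 and 82056 CPM with rivaroxaban, between 83522 and 83818 CPM with dabigatran and between 85171 and 85203 CPM in untreated hearts. In whole tissue, fewer cells of a type and less RNA per cell cannot be told apart.

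Klf2 and Klf4, the flow-responsive pair, had the largest differences of the members with both drugs. Klf2 was at 7.26 and 7.29 log2 CPM with rivaroxaban and at 7.09 and 7.19 log2 CPM with dabigatran, against 6.36 and 6.20 log2 CPM in untreated hearts. All 4 treated libraries lay above both untreated libraries. The mean was 7.27 ± 0.02 with rivaroxaban, 7.14 ± 0.07 with dabigatran and 6.28 ± 0.11 in untreated hearts (log2 CPM, SD, n = 2 each), a rise of 1.995-fold with rivaroxaban (log2 difference 0.996, 95% interval 0.85 to 1.14) and of 1.82-fold with dabigatran (log2 difference 0.86, interval 0.72 to 1.01). Klf4, which also serves in pluripotent cells and in smooth muscle, was at 6.84 and 7.00 log2 CPM with rivaroxaban and at 6.60 and 6.76 log2 CPM with dabigatran, against 5.87 and 5.79 log2 CPM in untreated hearts. Here too no treated library overlapped the untreated ones. The rise was 2.13-fold with rivaroxaban (log2 difference 1.09, interval 0.93 to 1.25) and 1.80-fold with dabigatran (log2 difference 0.84, interval 0.68 to 1.01). In reads, the rivaroxaban libraries held 5562 and 4563 reads of Klf2 and the dabigatran libraries 3645 and 6372, against 2333 and 2369 in the untreated libraries. With any single library left out, the log2 difference of Klf2 stayed between 0.92 and 1.08 with rivaroxaban and between 0.78 and 0.94 with dabigatran, and that of Klf4 between 1.01 and 1.17 and between 0.76 and 0.92. Both passed with each drug in 14 of the 15 alternatives run, the exception being the fit without a mean-variance trend, in which no gene of the table passed.

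**Figure D1:**
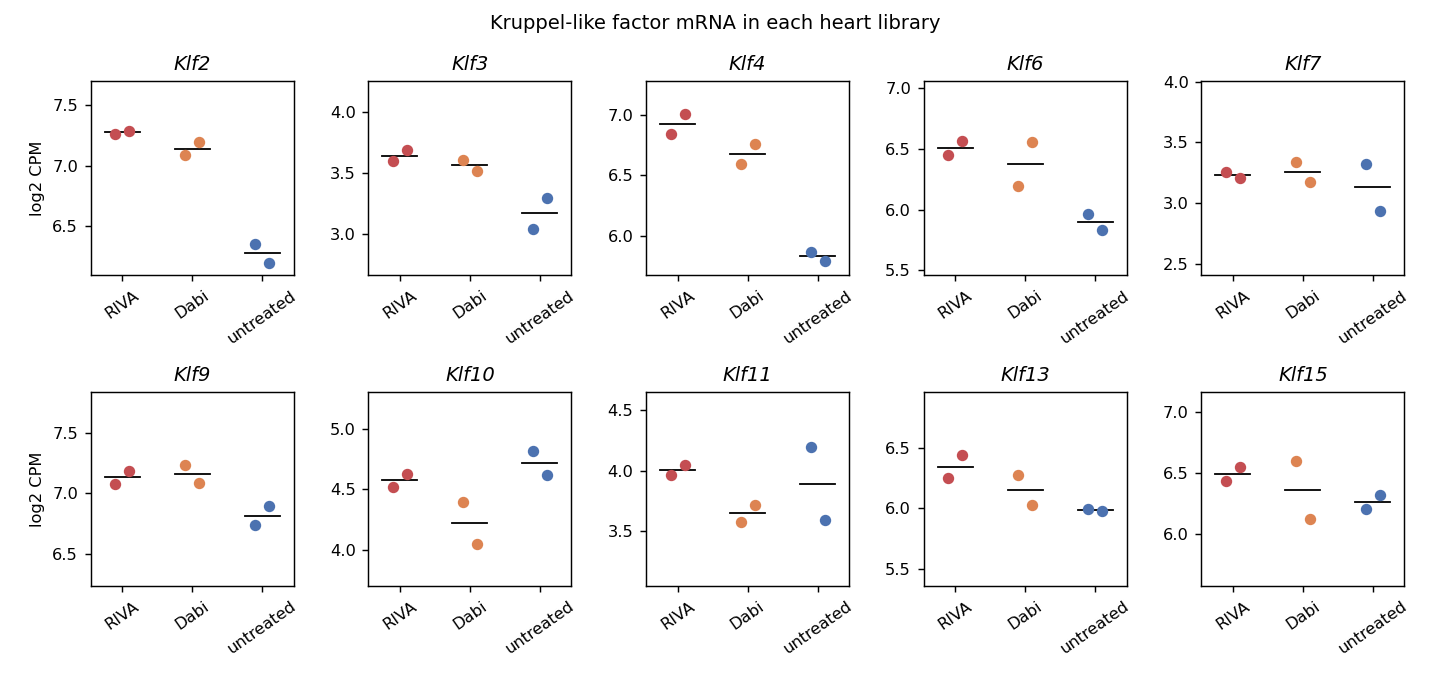
Log2 CPM of the 10 Kruppel-like factors (vertical axis, the same span of log2 units in each panel) in each library, as points, by group (horizontal axis: RIVA, rivaroxaban; Dabi, dabigatran; untreated; 2 libraries each), with a bar at the group mean. All treated points of Klf2, Klf3, Klf4, Klf6, Klf9 and Klf13 lie above both untreated points, the points of Klf7 and Klf11 overlap the untreated ones with both drugs, those of Klf15 with dabigatran and those of Klf10 with rivaroxaban.

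Klf6, an injury-responsive factor made by many cell types, was at 6.45 and 6.57 log2 CPM with rivaroxaban and at 6.20 and 6.56 log2 CPM with dabigatran, against 5.96 and 5.83 log2 CPM in untreated hearts. The treated libraries were all higher, and the dabigatran libraries stood further apart than those of the other groups. It rose 1.53-fold with rivaroxaban (log2 difference 0.61, interval 0.39 to 0.84) and 1.40-fold with dabigatran (log2 difference 0.48, interval 0.26 to 0.71). Klf6 passed in 12 of the 15 alternatives with rivaroxaban and in 5 of the 15 with dabigatran, where it did not pass by voom. With rivaroxaban it no longer passed without rivaroxaban replicate 15 or untreated replicate 9 (log2 difference 0.55 in both cases). With dabigatran it passed in 1 of the 6 fits with a library left out, that without dabigatran replicate 10 (log2 difference 0.66), and the difference was 0.30 without dabigatran replicate 12.

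Klf9, which glucocorticoids and thyroid hormone induce, was at 7.07 and 7.19 log2 CPM with rivaroxaban and at 7.24 and 7.09 log2 CPM with dabigatran, against 6.74 and 6.90 log2 CPM in untreated hearts. Every treated library was above the untreated ones. The log2 difference was 0.35 with dabigatran (interval 0.19 to 0.51), a 1.27-fold rise that passed, and 0.31 with rivaroxaban (interval 0.15 to 0.47), which did not pass. These values lay on opposite sides of the threshold but within 0.03 of each other on the log2 scale, and the difference between the drugs was -0.03 (interval -0.19 to 0.13). With each drug Klf9 passed in 7 of the 15 alternatives. By voom on recovered reads the sides changed, as it passed with rivaroxaban and not with dabigatran. The dabigatran value no longer passed without rivaroxaban replicate 14 or 15, dabigatran replicate 10 or untreated replicate 8, while the rivaroxaban value passed without dabigatran replicate 10 or 12 or untreated replicate 9.

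Klf13 and Klf3 had all treated libraries above the untreated ones and did not pass in either comparison. Klf13, a factor of heart development, was at 6.25 and 6.44 log2 CPM with rivaroxaban and at 6.28 and 6.03 log2 CPM with dabigatran, against 5.99 and 5.98 log2 CPM in untreated hearts. Its log2 difference was 0.36 with rivaroxaban (interval 0.16 to 0.55) and 0.17 with dabigatran (interval -0.03 to 0.36). With rivaroxaban it passed in 3 of the 15 alternatives, namely without dabigatran replicate 10, without dabigatran replicate 12 and in a fit of the 2 groups. With dabigatran the difference was 0.039 without dabigatran replicate 10 and 0.29 without dabigatran replicate 12. Klf3, a repressor that recruits CtBP, was at 3.60 and 3.69 log2 CPM with rivaroxaban and at 3.61 and 3.51 log2 CPM with dabigatran, against 3.04 and 3.30 log2 CPM in untreated hearts. Its log2 difference was 0.48 with rivaroxaban (interval 0.23 to 0.73) and 0.39 with dabigatran (interval 0.14 to 0.65). With rivaroxaban it passed in 2 of the 15 alternatives, namely with a robust prior and without untreated replicate 9 (log2 difference 0.61). On GENCODE M21 the Klf3 locus overlaps Gm20033, a transcript of the opposite strand at a mean of -0.17 log2 CPM in these libraries. Whether the counting used strand is not given in the sources used here, so a share of reads between this pair cannot be told apart.

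Klf15, the metabolic regulator of heart muscle, was at 6.43 and 6.55 log2 CPM with rivaroxaban and at 6.60 and 6.12 log2 CPM with dabigatran, against 6.20 and 6.32 log2 CPM in untreated hearts. The rivaroxaban libraries were above the untreated ones, while the dabigatran libraries lay on either side of them. Neither comparison passed, with log2 differences of 0.23 (interval -0.04 to 0.50) with rivaroxaban and 0.10 (interval -0.17 to 0.37) with dabigatran. The SD between dabigatran libraries was 0.34 on the log2 scale, the widest of any member in that group, and without dabigatran replicate 10 the dabigatran difference turned to -0.14.

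Of the TGF-beta-inducible factors Klf10 and Klf11, neither passed with either drug. Klf10 was at 4.52 and 4.62 log2 CPM with rivaroxaban and at 4.40 and 4.05 log2 CPM with dabigatran, against 4.82 and 4.62 log2 CPM in untreated hearts. Both dabigatran libraries were below the untreated ones, and the rivaroxaban libraries overlapped them. The log2 difference was -0.50 with dabigatran (interval -0.75 to -0.24), which did not pass, and -0.14 with rivaroxaban (interval -0.40 to 0.11). With dabigatran it passed in 2 of the 15 alternatives, namely by voom and without dabigatran replicate 10 (log2 difference -0.67), and the difference was -0.32 without dabigatran replicate 12. With rivaroxaban a library left out moved it between -0.24 (without untreated replicate 9) and -0.045 (without untreated replicate 8). Klf11 was at 3.96 and 4.05 log2 CPM with rivaroxaban and at 3.58 and 3.72 log2 CPM with dabigatran, against 4.20 and 3.59 log2 CPM in untreated hearts. The untreated libraries overlapped both treated groups, with an SD of 0.43 on the log2 scale, and neither log2 difference passed (0.11 with rivaroxaban and -0.24 with dabigatran). Both changed sign with an untreated library left out, to -0.19 with rivaroxaban without replicate 9 and to 0.060 with dabigatran without replicate 8. Klf7, known from neurons and fat cells, was at 3.26 and 3.21 log2 CPM with rivaroxaban and at 3.34 and 3.17 log2 CPM with dabigatran, against 3.32 and 2.94 log2 CPM in untreated hearts. All its groups overlapped, and its log2 differences were 0.10 (interval -0.20 to 0.40) with rivaroxaban and 0.13 (interval -0.17 to 0.42) with dabigatran.

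**Figure D2:**
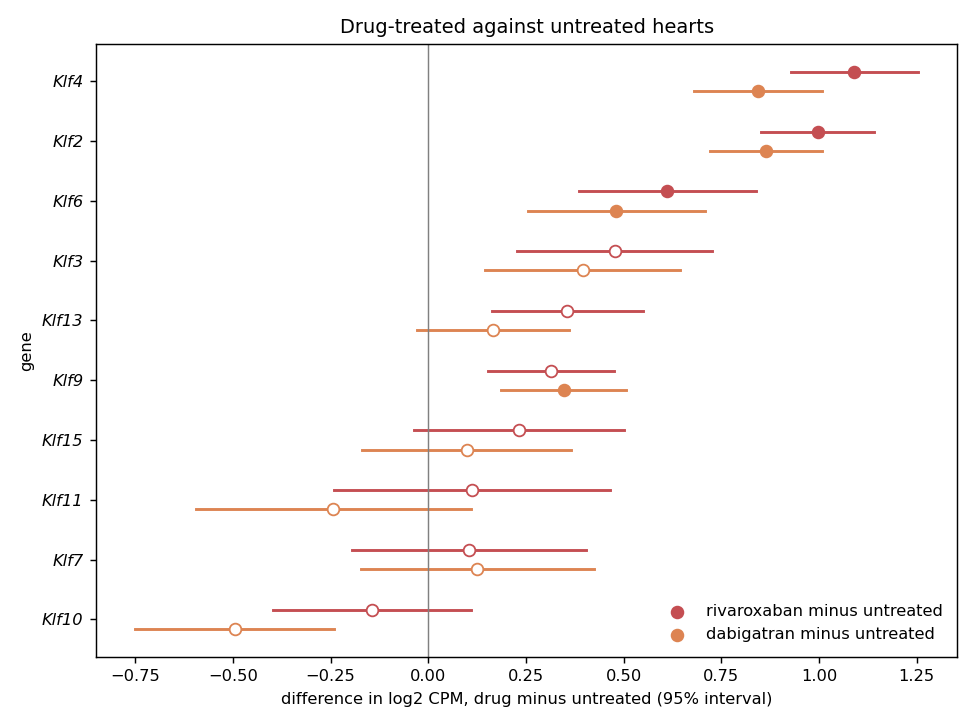
Difference in log2 CPM from untreated hearts (horizontal axis) for each Kruppel-like factor (vertical axis, ordered by the rivaroxaban value), with rivaroxaban above dabigatran and lines for the 95% interval of the limma fit. Filled points passed the threshold over all genes and open points did not: Klf4, Klf2 and Klf6 are filled for both drugs and Klf9 for dabigatran.

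With rivaroxaban 3 of the 10 members rose and 0 fell, where 2.46% of all tested genes passed (1.47% rose and 0.986% fell). With dabigatran 4 rose and 0 fell, where 1.88% passed (1.38% rose and 0.501% fell). By voom on recovered reads 4 members passed with rivaroxaban, namely Klf2, Klf4, Klf6 and Klf9. With dabigatran 3 passed by voom, namely Klf2 and Klf4, which were higher, and Klf10, which was lower. The share of all genes that passed by voom is not given here, so nothing is read from these voom counts. The median log2 difference of the members was 0.33 with rivaroxaban and 0.26 with dabigatran, against 0.01 and 0.00 over all tested genes. With rivaroxaban, 7 members had both libraries above both untreated ones and 0 had both below, where 50.6% of all tested genes did not overlap (26.1% above and 24.5% below). With dabigatran, 6 lay above and 1 below, where 43.6% did not overlap (22.8% above and 20.8% below). Both comparisons use the same untreated libraries, and the members were proposed with these values known, so nothing is read from these shares.

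Per length, Klf2 had the highest level and Klf3 the lowest mean in every group, while Klf4, Klf15 and Klf9 changed places. Levels were divided by the exon length of each gene in GENCODE M21, merged over its transcripts, and are given as CPM per kilobase, each group by its 2 libraries. This order depends on that length. By mean log2 CPM, Klf7 and not Klf3 was lowest in every group, and in untreated hearts Klf9 (6.82) was above Klf2 (6.28). Klf2 was at 82.8 and 84.6 with rivaroxaban and 73.7 and 79.1 with dabigatran, against 39.7 and 44.3 in untreated hearts. Klf4 was second by its mean with each drug, at 37.6 and 42.1 with rivaroxaban and 31.7 and 35.4 with dabigatran, and the fourth in untreated hearts at 18.2 and 19.2. Klf15 (26.4 and 28.5) and Klf9 (22.1 and 24.7) stood between Klf2 and Klf4 in untreated hearts. After them came Klf6 with means of 20.7 with rivaroxaban, 19.1 with dabigatran and 13.6 in untreated hearts, and Klf13 with 10.8, 9.48 and 8.42. Klf10, Klf11, Klf7 and Klf3 closed the order, from 6.31 for Klf10 to 0.802 for Klf3 in untreated hearts. In untreated hearts no neighbours in this order overlapped. With dabigatran Klf15, at 24.9 and 34.7, overlapped both Klf9 and Klf4, and in replicate 10 it lay above Klf4. With rivaroxaban Klf7 and Klf3 overlapped, so these pairs did not differ beyond their spread there. Klf2 and Klf4 together made up 54.6% and 53.8% of the summed level per length of the 10 members with rivaroxaban and 50.6% and 55.4% with dabigatran, against 43.0% and 40.5% in untreated hearts.

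**Figure D3:**
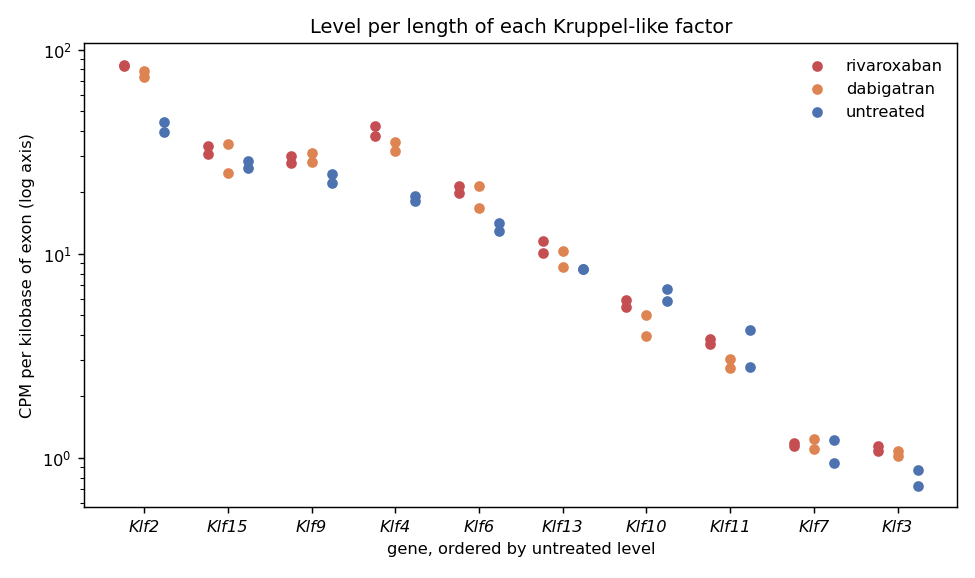
CPM per kilobase of exon (vertical axis, log scale) of each Kruppel-like factor (horizontal axis, ordered by the untreated mean), with a point for each of the 2 libraries of the rivaroxaban, dabigatran and untreated groups. Klf4 lies below Klf15 and Klf9 in untreated libraries, above both in rivaroxaban libraries, and above Klf9 but across the range of Klf15 in dabigatran libraries.

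The drugs were given at different doses, 3 and 10 mg/kg, so drug and dose cannot be told apart. None of the 10 members passed between them by limma, where 0.077% of all tested genes passed. By voom on recovered reads 0 members were called. The members were chosen with their differences from untreated hearts known, so nothing is read from the next count. At an unadjusted limma p under 0.05 were 3 of the 10 members, and 1094 of all 12981 tested genes. Those 3 were Klf4 (log2 difference 0.25, rivaroxaban minus dabigatran, interval 0.08 to 0.41), Klf10 (0.35, interval 0.10 to 0.61) and Klf11 (0.35, interval 0.002 to 0.71). In each of them both rivaroxaban libraries lay above both dabigatran libraries. The difference of Klf10 was 0.18 without dabigatran replicate 12 and 0.53 without dabigatran replicate 10. For Klf2 the same held, with a difference of 0.13 (interval -0.01 to 0.28). Thus 4 members lay above and 0 below without overlap, where 39.7% of all tested genes did not overlap (19.3% above and 20.4% below). The other members overlapped between the drugs, and their differences lay between -0.03 for Klf9 and 0.19 for Klf13.

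The remaining genes of the KLF and SP family were listed but not picked, and none of the 6 tested passed in either drug comparison (limma; 2 with rivaroxaban and 1 with dabigatran at an unadjusted p under 0.05, and 0 by voom). Klf16 was at 3.63 and 3.62 log2 CPM with rivaroxaban and at 3.35 and 3.34 log2 CPM with dabigatran, against 3.29 and 3.14 log2 CPM in untreated hearts, with log2 differences of 0.41 (limma adjusted p = 0.0658) and 0.13 (limma adjusted p = 0.614). Klf12, a repressor that like Klf3 binds CtBP, was at 2.31 and 2.50 log2 CPM with rivaroxaban and at 2.42 and 2.13 log2 CPM with dabigatran, against 2.82 and 2.68 log2 CPM in untreated hearts. Its treated libraries were all lower, with log2 differences of -0.35 (limma adjusted p = 0.262) and -0.47 (limma adjusted p = 0.155). The general promoter factors Sp1 and Sp3 had log2 differences of 0.08 and 0.05 with rivaroxaban and of 0.02 and -0.02 with dabigatran, and Sp4 and Sp2 of 0.07 and 0.09 and of 0.13 and -0.10 (limma adjusted p of 0.595 or more). Klf5, known from smooth muscle and epithelium, had 5 to 15 reads a library. Klf1, the red cell factor, had 1 to 8 reads, Klf8 9 to 22, Klf14 5 to 10, Sp6 2 to 9 and Sp9 0 to 7, and these 6 genes were under the minimum mean of 0 log2 CPM. In the fit without that minimum 0 of them passed in either drug comparison (limma; 1 with rivaroxaban and 0 with dabigatran at an unadjusted p under 0.05). Klf17, Klf18, Sp5, Sp7 and Sp8 were not analysed here.

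The gene lists below were chosen with earlier results of these data known, so nothing is read from their counts. Over all tested genes 1.47% rose and 0.986% fell with rivaroxaban, and 1.38% rose and 0.501% fell with dabigatran. Of 7 tested genes of the ERK5 and MEF2 route, which turns on Klf2 and Klf4 in endothelium, 0 rose and 1 fell with rivaroxaban. With dabigatran 0 passed (2 at an unadjusted p under 0.05, and 0 by voom). The gene that fell was Mef2c, which encodes a MEF2 factor, at 6.29 and 6.19 log2 CPM with rivaroxaban and at 6.34 and 6.35 log2 CPM with dabigatran, against 6.53 and 6.52 log2 CPM in untreated hearts. Its log2 difference was -0.29 with rivaroxaban (SE 0.06, limma adjusted p = 0.0271) and -0.18 with dabigatran (SE 0.06, limma adjusted p = 0.154). Mef2d and the kinase gene Map3k2 had log2 differences of 0.14 and 0.21 with rivaroxaban and of 0.13 and 0.12 with dabigatran, none of which passed. Of 10 tested cofactors and ubiquitin ligases of KLF proteins, 0 passed with either drug by limma or voom, with 1 at an unadjusted limma p under 0.05 in each comparison. That gene was Crebbp, a histone acetyltransferase, with a log2 difference of 0.25 with each drug (limma adjusted p = 0.0946 with rivaroxaban and 0.108 with dabigatran), and its relative Ep300 had 0.13 and 0.12.

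Of 8 tested endothelial genes that KLF2 or KLF4 are known to induce, 1 rose and 1 fell with rivaroxaban, and 2 rose and 0 fell with dabigatran, with a median log2 difference of 0.04 and 0.11 (1 and 2 by voom). S1pr1, a sphingosine-1-phosphate receptor that keeps vessels tight, was at 6.73 and 6.87 log2 CPM with rivaroxaban and at 6.94 and 6.99 log2 CPM with dabigatran, against 6.17 and 6.10 log2 CPM in untreated hearts. It rose 1.59-fold with rivaroxaban (log2 difference 0.67, SE 0.06, limma adjusted p = 5.94e-04) and 1.79-fold with dabigatran (log2 difference 0.84, SE 0.06, limma adjusted p = 1.25e-04). Slco2a1, a prostaglandin transporter, was at 2.70 and 2.62 log2 CPM with rivaroxaban and at 2.76 and 2.93 log2 CPM with dabigatran, against 3.15 and 3.24 log2 CPM in untreated hearts. It fell with rivaroxaban (log2 difference -0.53, limma adjusted p = 0.0432), opposite to its known response, a call that ended by voom (adjusted p = 0.0603), and had -0.35 with dabigatran (limma adjusted p = 0.191). Aqp1, a water channel, rose with dabigatran (log2 difference 0.37, limma adjusted p = 0.0362) and had 0.02 with rivaroxaban (limma adjusted p = 0.921), a difference between the drugs that did not pass (log2 -0.35, limma adjusted p = 0.172). Gja4, a gap junction gene of arteries, had -0.40 with rivaroxaban and -0.23 with dabigatran, and the anticoagulant receptor gene Thbd 0.20 and 0.15, none of which passed. Of 4 tested genes that these factors are known to repress, 0 passed with either drug (limma; 0 with rivaroxaban and 2 with dabigatran at an unadjusted p under 0.05, and 0 by voom). The adhesion molecule genes Vcam1 and Sele had log2 differences of -0.08 and -0.39 with rivaroxaban and of -0.27 and -0.87 with dabigatran. The 10 endothelial markers summed to 1326 to 1402 CPM with rivaroxaban and 1341 to 1429 CPM with dabigatran, against 1281 to 1346 CPM in untreated hearts. With rivaroxaban 0 of them rose and 1, Emcn, fell (log2 difference -0.43), and with dabigatran 1, Flt1, rose (log2 difference 0.29) and 0 fell. Their part in the levels of Klf2 and Klf4 was not tested.

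Known targets of Klf15 had a median log2 difference of -0.12 with rivaroxaban and -0.02 with dabigatran over 6 tested genes. With rivaroxaban 0 passed (5 at an unadjusted p under 0.05, and 0 by voom), and with dabigatran 1 rose. That gene was Prodh, the first enzyme of proline breakdown, at 5.17 and 5.22 log2 CPM with rivaroxaban and at 5.66 and 5.47 log2 CPM with dabigatran, against 4.99 and 5.05 log2 CPM in untreated hearts (log2 difference with dabigatran 0.54, SE 0.08, limma adjusted p = 0.00795). Its difference with rivaroxaban was 0.17 (limma adjusted p = 0.281), and the drugs did not differ past the threshold (log2 -0.37, limma adjusted p = 0.172). Kcnip2, a potassium channel subunit gene, and Gpt, an alanine transaminase gene, had log2 differences of 0.23 and -0.30 with rivaroxaban and of 0.11 and -0.14 with dabigatran, none of which passed.

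Of 8 tested TGF-beta ligands and early targets, the class to which Klf10 and Klf11 belong, 3 rose and 0 fell with each drug. Over all tested genes 1.47% rose with rivaroxaban and 1.38% with dabigatran. The list was chosen with earlier results of these data known, so nothing is read from its count. Smad7, an inhibitor of TGF-beta receptors, was at 5.31 and 5.28 log2 CPM with rivaroxaban and at 5.36 and 5.19 log2 CPM with dabigatran, against 4.66 and 4.77 log2 CPM in untreated hearts. It rose 1.49-fold with rivaroxaban (limma adjusted p = 0.00325) and 1.47-fold with dabigatran (limma adjusted p = 0.00729). Skil, a SMAD corepressor, rose 1.33-fold and 1.29-fold (limma adjusted p = 0.0226 and 0.0388), and Ccn2, a matricellular protein gene, 1.52-fold and 1.36-fold (limma adjusted p = 0.00878 and 0.0410). The ligand genes Tgfb1 and Tgfb3 had log2 differences of 0.03 and 0.32 with rivaroxaban and of -0.25 and 0.26 with dabigatran, none of which passed. By voom on recovered reads, 3 passed with rivaroxaban and 1 with dabigatran, where Skil and Ccn2 were lost (adjusted p = 0.0559 and 0.0558).

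Klf9, Klf10 and Klf15 follow the daily clock in many tissues, and no time of harvest is given. Of 11 tested clock genes, 1 rose and 1 fell with rivaroxaban and 1 rose and 2 fell with dabigatran. Per1, which glucocorticoids also induce, rose 1.73-fold and 1.82-fold (limma adjusted p = 0.00372 and 0.00409), the repressor gene Bhlhe41 fell by 0.45 and by 0.50 on the log2 scale (limma adjusted p = 0.00595 and 0.00555), and the clock output gene Dbp fell with dabigatran (log2 difference -0.56, limma adjusted p = 0.0370). Per2 and Nr1d1 had log2 differences of 0.49 and -0.001 with rivaroxaban and of 0.35 and -0.30 with dabigatran, none of which passed. Of 10 tested glucocorticoid receptors and targets, 7 rose with rivaroxaban and 6 with dabigatran and 0 fell. Over all tested genes 1.47% rose with rivaroxaban and 1.38% with dabigatran. This list was chosen with earlier results of these data known, so nothing is read from its count. Sgk1, a kinase gene, rose 2.26-fold and 2.24-fold (limma adjusted p = 5.87e-05 and 1.20e-04), and Tsc22d3, which encodes the leucine zipper protein GILZ, 1.90-fold and 1.73-fold (limma adjusted p = 0.00117 and 0.00495). Ddit4, a stress-induced inhibitor of mTOR, rose 2.43-fold and 2.82-fold, Errfi1, an inhibitor of EGF receptor signalling, 2.27-fold and 2.61-fold, and Zbtb16, a zinc finger factor gene, 4.37-fold and 2.81-fold, the last no longer passing with dabigatran by voom (adjusted p = 0.0646). Fkbp5, a co-chaperone of the receptor, rose 2.09-fold with rivaroxaban and had a 1.64-fold difference with dabigatran that did not pass. The receptor genes Nr3c1 and Nr3c2 had log2 differences of -0.13 and -0.30 with rivaroxaban and of -0.17 and -0.19 with dabigatran, none of which passed. Of 19 tested immediate early genes, 9 rose and 0 fell with rivaroxaban and 7 rose and 1 fell with dabigatran. The choice of these genes was likewise made with earlier results known, so nothing is read from their count. Nr4a1, a nuclear receptor gene, rose 3.04-fold and 5.78-fold (limma adjusted p = 0.0115 and 0.00119), and the gene that fell was Egr1, a zinc finger factor gene, with log2 differences of -1.37 with rivaroxaban and -1.51 with dabigatran (limma adjusted p = 0.0562 and 0.0420). Fosl2, Atf3, Btg2, Maff, Zfp36 and Nr4a3 rose with both drugs, by 1.30-fold (Zfp36) to 2.92-fold (Nr4a3) with rivaroxaban and by 1.44-fold (Maff) to 7.46-fold (Nr4a3) with dabigatran. By voom the calls of Nr4a3 with rivaroxaban (adjusted p = 0.220) and of Maff with dabigatran (adjusted p = 0.0596) ended. Egr1, not called with rivaroxaban by limma, passed there by voom as a lower gene (log2 difference -1.33, voom adjusted p = 0.0494). Jun and Ier5 rose with rivaroxaban (log2 differences 0.52 and 0.59) and did not pass with dabigatran, and Nr4a2 and Jund passed with neither drug (log2 differences 0.50 and 0.26 with rivaroxaban and 0.74 and 0.11 with dabigatran). The 6 mesothelial markers summed to 44.7 to 50.9 CPM with rivaroxaban and 54.7 to 57.4 CPM with dabigatran, against 77.8 to 80.5 CPM in untreated hearts, of which 5 fell and 1, Wt1, rose with rivaroxaban and 3 fell and Wt1 rose with dabigatran. Summed macrophage markers were at 369 to 433 CPM and 389 to 419 CPM, against 361 to 378 CPM in untreated hearts, and summed smooth muscle markers at 1189 to 1193 CPM and 1235 to 1255 CPM, against 1191 to 1214 CPM in untreated hearts. Of these markers Cd163 (macrophage) rose and Myh11 (smooth muscle, 0 by voom) fell with rivaroxaban, and none passed with dabigatran. None of the 6 fibroblast markers (1325 to 1506 CPM and 1251 to 1371 CPM, against 1292 to 1381 CPM in untreated hearts) and none of the 4 tested lymphocyte markers (7.11 to 7.90 CPM and 5.18 to 7.08 CPM, against 7.66 to 7.77 CPM in untreated hearts) passed with either drug. Of the red cell list only Slc4a1 was analysed here, at 1.29 to 1.87 CPM and 1.76 to 2.60 CPM, against 0.277 to 0.868 CPM in untreated hearts, and it rose with dabigatran. The part of any of these in the levels of the members was not tested.

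The genes whose profile over the 6 libraries lay nearest to a member were found by the root mean square difference of log2 CPM after each gene was centred on its own mean. For Klf2 the nearest of 2297 genes with a range at least 0.5 times its own was Klf4 (root mean square difference 0.069), followed by Kcna5, a voltage-gated potassium channel gene (0.070), and Enc1 (0.083). For Klf4 they were Klf2 (0.069), Kcna5 (0.096) and Arid5a, an RNA-binding protein gene (0.098). Kcna5 was at 5.91 and 5.97 log2 CPM with rivaroxaban and at 5.86 and 5.74 log2 CPM with dabigatran, against 4.96 and 4.90 log2 CPM in untreated hearts. Klf6 ranked 52nd and Klf3 186th by nearness to Klf2, and Klf10 1705th. For Klf9 the nearest of 7150 genes were Anks1 (0.039), Fbxo30 (0.040) and Spen (0.042), and Klf2 ranked 5818th. Genes were centred but not scaled, so such a rank also reflects the size of the differences. The range over the libraries was 0.50 for Klf9 and 1.09 for Klf2. For Klf15 the nearest of 7516 were Isg15 (0.040), Ccdc85a (0.052) and Dennd6a (0.056), with Klf13 at rank 54. These distances describe 6 libraries that share their treatment groups and say nothing of shared control.

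**Figure D4:**
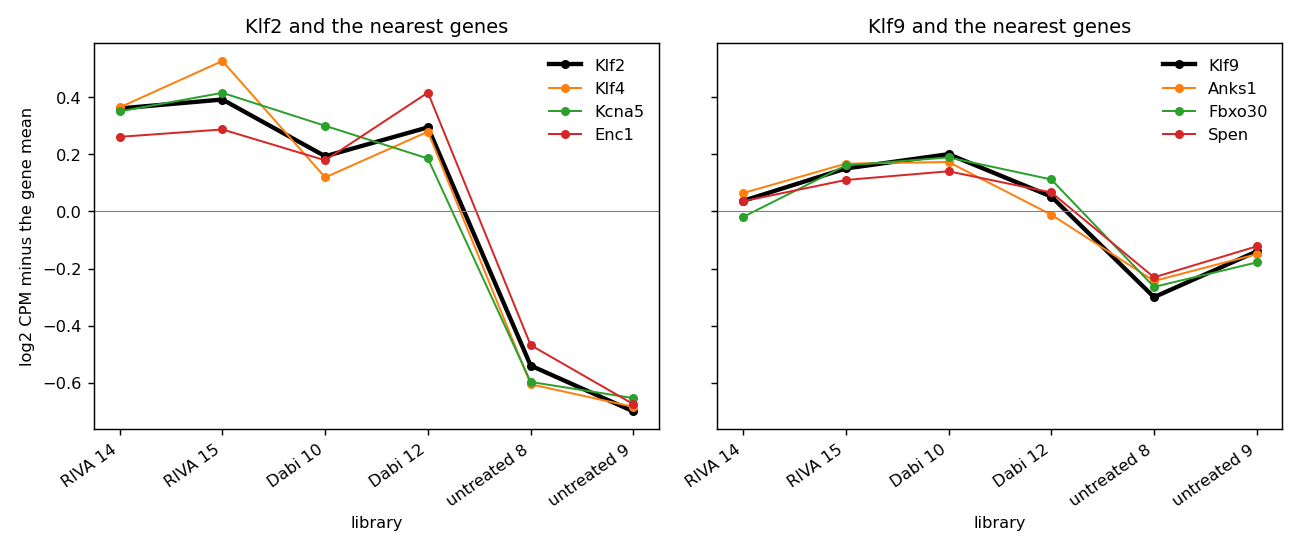
Log2 CPM minus the mean of each gene over all libraries (vertical axis) in the 2 rivaroxaban, 2 dabigatran and 2 untreated libraries (horizontal axis), for Klf2 with its 3 nearest genes on the left and Klf9 with its 3 nearest genes on the right. Lines only join the points of a gene: every gene shown lies below its mean in both untreated libraries, Klf2 at -0.54 and -0.70 and Klf9 at -0.30 and -0.14.

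On the mm10 (GRCm38) assembly, GENCODE M21 places the members that passed on chromosome 8 from 72319033 to 72321656 (Klf2, ENSMUSG00000055148), chromosome 4 from 55527143 to 55532466 (Klf4, ENSMUSG00000003032), chromosome 13 from 5861482 to 5870394 (Klf6, ENSMUSG00000000078) and chromosome 19 from 23141226 to 23168134 (Klf9, ENSMUSG00000033863). All 10 members are annotated there as protein-coding.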

How the data were processed

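The deposited table holds 1 log2 CPM value per gene and library, scaled by the authors with TMM, per the name of the deposited file. Of tools, STAR, edgeR, Trim Galore, FastQC and bcl2fastq appear in the submitters' processing notes, with the build mm10 and no versions. Which program counted reads, and on which annotation, is not given in the sources used here. All libraries share a lowest value of -4.04, so an offset had been added before the log and differences of low genes are understated. After this floor was subtracted, low values were whole multiples of 1 read within 0.02 reads (100% of those up to 200 reads). This gave the reads per library.

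Groups came from the titles. The 12981 of 16229 genes whose mean reached 0 log2 CPM were tested with limma 3.58.1 in R 4.3.3 (3 group means, mean-variance trend, two-sided, Benjamini-Hochberg over all tested genes within a comparison, threshold 0.05; 3 residual and 7.75 prior degrees of freedom). The fit was also run on simulated counts with the same dispersion for every gene. That run cannot show how the fit behaves with the spread of these libraries, and nothing is concluded from it. The members and the 18 other gene lists were chosen with earlier results of these data known. Beyond members and other family genes, named genes were the list members that passed with either drug and up to 2 that did not, by lowest p, and the 3 nearest profiles of Klf2, Klf4, Klf9 and Klf15. List genes were matched by symbol, and Ccn2 by Entrez number through the RefSeq table. RefSeq promoter windows matched 9 of 10 members by symbol. Alternatives were other filters, an added 1 CPM, median and quantile scaling, other variance models, fits of 2 groups, each library left out and, chosen after seeing the data, voom on recovered reads.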

Additional observations from a re-analysis of the deposited data

How the results depend on the processing

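The direction and side of the threshold of Klf2 and Klf4 held with both drugs in 14 of 15 alternatives. Without a mean-variance trend 0 genes and 0 members passed in any comparison (1938, 1728 and 984 genes at an unadjusted p under 0.05 for rivaroxaban, for dabigatran and between the drugs). With rivaroxaban 5 members passed with a robust prior and 5 in a fit of the 2 groups. With dabigatran 2 members and 154 genes passed after quantile normalization, and 2 members in a fit of the 2 groups. How many of all genes passed with a robust prior or in a fit of the 2 groups is not given here for these comparisons. Nothing is read from those member counts. Between the drugs 1 gene passed with a minimum of 2 log2 CPM, 1 after quantile normalization, 6 in a fit of the 2 groups and 1 by voom. With a library left out, 61 (without rivaroxaban replicate 15) to 410 genes and 2 to 5 members passed with rivaroxaban, 73 (without untreated replicate 8) to 270 genes and 2 to 4 members with dabigatran, and 0 to 20 genes and 0 members between the drugs.

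Some differences that did not pass kept their sign when any library was left out, and those given next changed it. With rivaroxaban they ran from -0.088 to 0.29 for Klf7, -0.19 to 0.41 for Klf11, -0.23 to 0.41 for Sp2 and -0.060 to 0.20 for Sp4. With dabigatran they ran from -0.065 to 0.32 for Klf7, -0.55 to 0.060 for Klf11, -0.14 to 0.34 for Klf15, -0.061 to 0.096 for Sp1 and -0.081 to 0.045 for Sp3. Between the drugs they ran from -0.051 to 0.31 for Klf6, -0.10 to 0.060 for Klf7 (0.023 by voom), -0.11 to 0.041 for Klf9, -0.10 to 0.37 for Klf15, -0.021 to 0.27 for Klf12, -0.013 to 0.14 for Sp1 and -0.13 to 0.51 for Sp2. The cause was not tested beyond the library left out.

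No paired analysis was possible because the groups share no replicate numbers. The planned edgeR and DESeq2 fits were not run, since the deposited values are log2 CPM, and voom on recovered reads, chosen after seeing the data, stands in their place. With 2 libraries a group, a fit with 1 left out assumes that the lone library varies like the others. Klf1, Klf5, Klf8, Klf14, Sp6 and Sp9, with 0 to 22 reads a library, were fitted only without the minimum on the mean.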
